A study of Mus musculus with 12 samples.

Results

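The genes examined here are 5 that make, carry and use creatine: Gatm, Gamt, Ckb, Ckmt1 and Slc6a8. They were found by symbol in the count table, where all 5 of 5 are listed among 17365 genes, and all 5 were among the 13312 genes with enough counts to be tested. The set was selected on the rise of Gatm from BMP to BMP/FGF in these same libraries. The values of that comparison are therefore given as a description, without a test. The libraries came from adult mouse neural stem cells (NSCs) of the subventricular zone, grown on laminin in serum-free medium, in the ANS4 line (MF1 strain) and the BL6 line (C57BL6 strain), both isolated from mice aged 6 to 8 weeks. Each line was kept for 3 days in EGF and FGF2 (EGF/FGF, proliferating), in BMP4 without mitogens (BMP, dormant quiescent NSCs) or in BMP4 with FGF2 (BMP/FGF, primed quiescent NSCs), with every factor at 10 ng/ml. No transgene, deletion or other treatment is given in the labels of these groups. Each of the 6 combinations of line and medium held 2 replicates, so that every medium had 4 libraries. The study calls its replicates biological, but neither it nor the labels say whether they were separate cultures, so p-values measure the spread between these libraries only, and each strain is represented by 1 line.

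Creatine and its phosphorylated form carry high-energy phosphate from the places where ATP is made to the places where it is spent. Cells make creatine in a pair of steps. GATM (glycine amidinotransferase) joins arginine and glycine into guanidinoacetate in mitochondria, which is the rate-limiting step, and GAMT (guanidinoacetate methyltransferase) adds a methyl group taken from S-adenosylmethionine. SLC6A8 instead brings ready-made creatine in through the plasma membrane together with sodium and chloride. Creatine kinases then move the phosphate, CKB in the cytosol and CKMT1 in the mitochondrial intermembrane space. Inherited loss of GATM, GAMT or SLC6A8 depletes brain creatine and impairs brain development.

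On GRCm38 with GENCODE M21 annotation, Gatm (ENSMUSG00000027199) lies on chromosome 2 from 122594467 to 122611303 on the minus strand. Gamt (ENSMUSG00000020150) lies on chromosome 10 from 80258151 to 80261012, minus strand, and Ckb (ENSMUSG00000001270) on chromosome 12 from 111669361 to 111672338, minus strand. Ckmt1 (ENSMUSG00000000308) lies on chromosome 2 from 121357714 to 121363737, plus strand, and Slc6a8 (ENSMUSG00000019558) on chromosome X from 73673150 to 73682502, plus strand. The last exon of Ckmt1 overlaps Strc, which runs on the opposite strand. Of the 31-base words in Ckb transcripts, 36.8% also occur in other annotated transcripts, nearly all of them from the processed pseudogenes Gm12892, Ckb-ps1 and Ckb-ps2, so the division of Ckb reads among these copies is uncertain. That share was 0.627% for Slc6a8, 0.538% for Ckmt1 and 0% for Gatm and Gamt. Each value below belongs to the whole gene, with its exons summed.

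RefSeq promoter sequences (GRCm38.p6) were at hand for 4 of the 5 genes, namely Gatm, Gamt, Ckb and Ckmt1. The 200 bases before the annotated start are shown for Gatm, whose level differed most between the quiescent media, and for Ckb, the most abundant of the 5. Both are read 5′ to 3′ on the minus strand, from chr2:122611304-122611503 and chr12:111672339-111672538, and neither stretch overlaps an annotated exon. Capitals mark CCAAT and TATAAA on either strand, which do not overlap each other.
Gatm: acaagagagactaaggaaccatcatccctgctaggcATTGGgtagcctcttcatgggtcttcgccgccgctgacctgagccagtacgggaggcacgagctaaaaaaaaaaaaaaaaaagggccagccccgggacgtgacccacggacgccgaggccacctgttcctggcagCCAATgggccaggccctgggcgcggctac
Ckb: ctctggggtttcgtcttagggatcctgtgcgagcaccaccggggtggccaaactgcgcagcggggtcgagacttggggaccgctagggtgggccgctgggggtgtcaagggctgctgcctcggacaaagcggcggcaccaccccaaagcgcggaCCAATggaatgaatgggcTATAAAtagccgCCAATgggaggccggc
The Gatm stretch held 2 CCAAT matches and 0 TATAAA matches, with 60.0% G and C. The Ckb stretch held 2 CCAAT matches and 1 TATAAA match between them, with 65.0% G and C. In windows of 250 bases, CCAAT occurred in 33.8% of 32851 promoters and TATAAA in 12.4%. Ckmt1 also held both words in its window. GGCGCC (in 9.59% of promoters) and CACGTG (in 6.02%), searched on both strands, were in none of the 4 windows. A match describes the letters only.

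Library totals were close to each other, from 18069052 to 19451818 counts, and 1 count was worth 0.0517 to 0.0559 CPM (counts scaled to library size with TMM factors of 0.972 to 1.03). Markers of neural stem cells (all 6 listed genes have a row) reached a sum of 6260 to 6740 CPM under EGF/FGF, 5610 to 6540 under BMP and 6870 to 7420 under BMP/FGF. Sums over the 8 astrocyte markers ran from 2690 to 3260 CPM under EGF/FGF, from 7630 to 9620 under BMP and from 11800 to 12000 under BMP/FGF, those over the 6 oligodendrocyte markers from 25.6 to 30.5, 155 to 182 and 257 to 266, and those over the 7 neuron markers from 556 to 590, 1130 to 1750 and 869 to 934, with none at 0 in every library of a medium. Of 6 microglia markers, Aif1 and C1qa have no row, Csf1r was at 0 in the BMP libraries, and the other genes summed to 1.24 to 3.61 CPM. Of 6 endothelial and mural markers, Cdh5 and Cldn5 have no row and the rest summed to 2.81 to 7.71 CPM. The astrocyte and oligodendrocyte sums follow another order of the media than any of the 5 genes, whereas the neuron sum has the order of Slc6a8. The neural stem cell sum, which overlaps between EGF/FGF and BMP, has the order of Gatm and Gamt, but no single marker in it does. Vim and Sox2 were lowest in EGF/FGF, with Vim at 2693, 4687 and 4737 CPM in EGF/FGF, BMP and BMP/FGF. Nes, Egfr, Fabp7 and Hes5 were highest in EGF/FGF, with Fabp7 at 2410, 476 and 1386 CPM. The part of these markers in the results was not tested. In bulk RNA, fewer cells of a type and less RNA per cell cannot be told apart.

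Gatm had the widest span of levels among the 5 genes in fold terms. In EGF/FGF it stood at 47.8 and 45.3 CPM in ANS4 and at 54.7 and 52.1 in BL6. With BMP alone it stood at 27.8 and 27.7 CPM in ANS4 and at 16.0 and 17.1 in BL6, and with BMP/FGF at 87.4 and 86.0 in ANS4 and 82.8 and 85.1 in BL6. The 3 media did not overlap in any pair: every BMP library was below every EGF/FGF library, and every BMP/FGF library was above both. The parting of BMP from BMP/FGF comes with the choice of Gatm. How many of all genes part in this way, here or for the genes below, was not counted. At FDR under 0.05 in edgeR, 79.6% of all tested genes differed in BMP against EGF/FGF, 78.9% in BMP/FGF against EGF/FGF and 41.4% in BMP/FGF against BMP. The means were 50.0 ± 4.21 CPM in EGF/FGF, 22.1 ± 6.49 in BMP and 85.3 ± 1.92 in BMP/FGF (SD, n = 4). The counts behind them ran from 308 to 503 in BMP and from 1482 to 1622 in BMP/FGF.

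**Figure D1:**
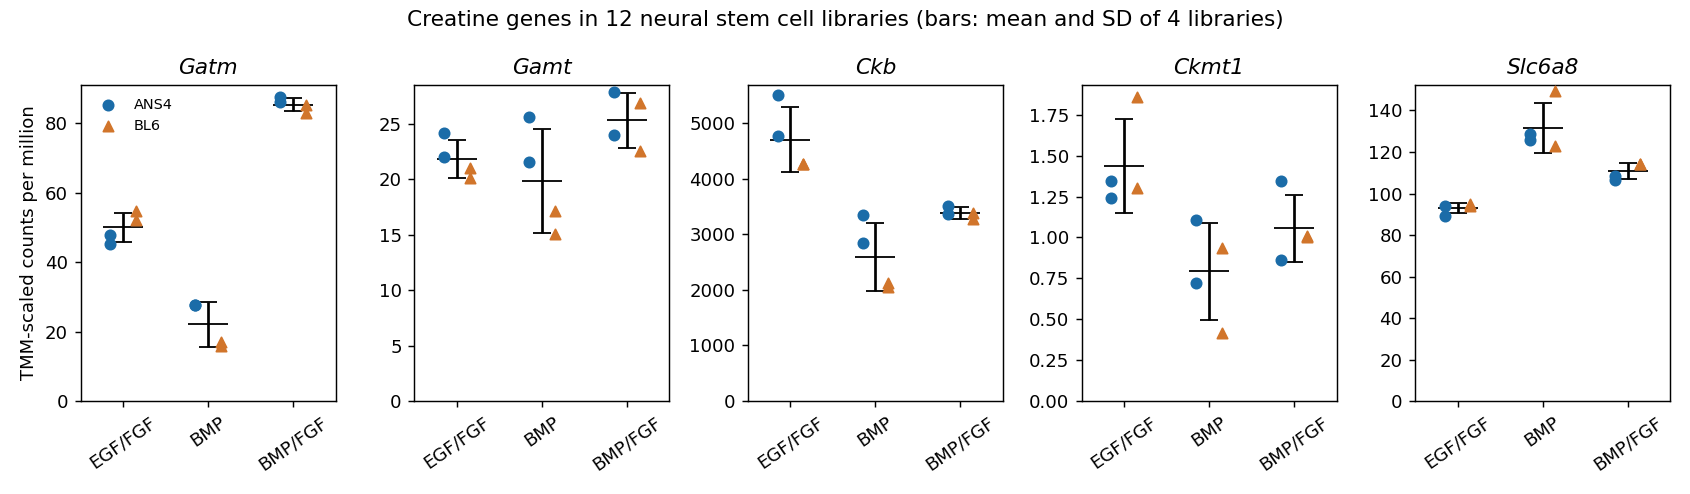
TMM-scaled CPM (vertical axes, starting at 0) of the 5 creatine genes in EGF/FGF, BMP and BMP/FGF (horizontal axes). Circles are ANS4 libraries, triangles BL6 libraries, and bars the mean and SD of 4 libraries. Gatm and Slc6a8 are parted in all 3 media, with Gatm lowest and Slc6a8 highest in BMP, while Gamt overlaps throughout. The share of all genes parted in this way was not counted.

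Between BMP and BMP/FGF, the comparison that led to the choice of Gatm, its log2 difference was 1.96 (SE 0.13), or 3.90-fold. This placed it at rank 95 of 13312 genes by size. Against EGF/FGF its log2 difference was −1.20 (SE 0.13) in BMP and 0.77 (SE 0.12) in BMP/FGF. These also carry no test, because they use the libraries of the choosing comparison. A contrast less tied to that choice is the mean of both quiescent media (BMP and BMP/FGF) against EGF/FGF. It uses the same libraries, and is independent of the choosing comparison only where both quiescent media spread equally. Over the 4 libraries of both lines, the SD of log2 Gatm was 0.434 in BMP and 0.0326 in BMP/FGF. These SDs include the difference between the lines. In BMP the replicates stood at 27.8 and 27.7 CPM in ANS4 and at 16.0 and 17.1 in BL6. In the quiescent mean Gatm did not pass the test, at −0.22 (SE 0.11, unadjusted 95% interval −0.43 to −0.003, edgeR quasi-likelihood F-test, FDR = 0.075). The interval is a normal one, narrower than the F-test allows, so that it leaves out 0 is no call. The quiescent mean averages 2 values of opposite sign. It was −0.54 in BL6 alone (edgeR FDR = 1.28e-05) and 0.07 in ANS4 alone (FDR = 0.257). Leaving out an EGF/FGF library of ANS4 brought the value for both lines to −0.275 (replicate 1, edgeR FDR = 0.0479) or −0.300 (replicate 2, FDR = 0.0257). Without a BMP library of ANS4 it was −0.275 (replicate 1) or −0.265 (replicate 2). These 2 values carry no test, because the quiescent media are then unequal in size and the contrast is tied to the choosing comparison.

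Gamt, which finishes creatine synthesis, differed little between the media. It stood at 24.2 and 22.02 CPM in ANS4 and 20.1 and 21.03 in BL6 under EGF/FGF. Under BMP it stood at 21.6 and 25.6 CPM in ANS4 and 15.03 and 17.2 in BL6, and under BMP/FGF at 27.9, 24.0, 22.5 and 26.9 in the same order. All 3 pairs of media overlapped. The means were 21.8 ± 1.75 CPM in EGF/FGF, 19.8 ± 4.70 in BMP and 25.3 ± 2.48 in BMP/FGF (SD, n = 4). Relative to EGF/FGF, Gamt did not pass the test in the quiescent mean (log2 difference 0.03, 95% interval −0.15 to 0.21, edgeR FDR = 0.75). Neither did it pass in BMP (−0.15, interval −0.36 to 0.06, FDR = 0.199) or in BMP/FGF (0.22, interval 0.01 to 0.42, FDR = 0.0679). The last interval is again a normal one, so that it leaves out 0 is no call. The BMP value passed in BL6 alone (−0.37, FDR = 0.0135) and without BMP ANS4 replicate 2 (−0.26, FDR = 0.0298). The BMP/FGF value passed without BMP ANS4 replicate 2 (0.22, edgeR FDR = 0.0412), without BMP/FGF ANS4 replicate 2 (0.29, FDR = 0.0226), without BMP BL6 replicate 1 (0.22, FDR = 0.0466) and in the 8 libraries of both media alone (0.20, FDR = 0.0274). BMP/FGF exceeded BMP by a log2 value of 0.37 (SE 0.11).

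Slc6a8, the creatine importer, was higher in both quiescent media. Its levels were 89.3 and 93.8 CPM in ANS4 and 94.8 and 93.8 in BL6 under EGF/FGF. They were 128.5 and 125.8 CPM in ANS4 and 123 and 149.3 in BL6 under BMP, and 108.3, 106.7, 114 and 114.3 under BMP/FGF. No pair of media overlapped. Slc6a8 was highest in BMP, where Gatm was lowest, followed by BMP/FGF and then EGF/FGF, and both genes were above EGF/FGF in every BMP/FGF library. The means were 92.9 ± 2.45, 131.6 ± 11.97 and 110.8 ± 3.91 CPM in EGF/FGF, BMP and BMP/FGF (SD, n = 4). The importer rose in the quiescent mean by 0.38 on the log2 scale (SE 0.05, edgeR FDR = 3.43e-06), in BMP by 0.50 (SE 0.06, FDR = 5.46e-07) and in BMP/FGF by 0.25 (SE 0.06, FDR = 0.00099). Set against BMP, the BMP/FGF level had a log2 difference of −0.25 (SE 0.06), or 1.19-fold lower.

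Ckb, the cytosolic creatine kinase of brain, took 0.211 to 0.548% of all counts in a library and was lower in quiescence. It stood at 4762 and 5505 CPM in ANS4 and 4255 and 4269 in BL6 under EGF/FGF. Under BMP it stood at 2848 and 3337 CPM in ANS4 and 2045 and 2127 in BL6, and under BMP/FGF at 3513, 3361, 3266 and 3387. Each quiescent medium lay below EGF/FGF without overlap, while BMP and BMP/FGF overlapped through an ANS4 library. The means were 4698 ± 588, 2589 ± 615 and 3382 ± 102 CPM in EGF/FGF, BMP and BMP/FGF (SD, n = 4). Ckb fell by 0.67 on the log2 scale in the quiescent mean (SE 0.08, 1.59-fold lower, edgeR FDR = 3.41e-07), by 0.87 in BMP (SE 0.09, FDR = 1.1e-07) and by 0.46 in BMP/FGF (SE 0.09, FDR = 0.000195). BMP/FGF lay above BMP by a log2 difference of 0.41 (SE 0.09).

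Ckmt1, the ubiquitous mitochondrial creatine kinase, was close to the limit of what these libraries can count. EGF/FGF libraries held 26 and 24 counts in ANS4 and 25 and 36 in BL6. BMP libraries held 20 and 13 counts in ANS4 and 18 and 8 in BL6, and BMP/FGF libraries 25, 16, 18 and 18. Every BMP library was below every EGF/FGF library, and the other pairs overlapped. The means were 1.44 ± 0.285, 0.794 ± 0.296 and 1.06 ± 0.206 CPM in EGF/FGF, BMP and BMP/FGF (SD, n = 4). Ckmt1 fell by 0.65 on the log2 scale in the quiescent mean (SE 0.23, edgeR FDR = 0.015) and by 0.86 in BMP (SE 0.28, FDR = 0.00908), whereas BMP/FGF did not pass (−0.44, 95% interval −0.96 to 0.08, FDR = 0.133). Without EGF/FGF BL6 replicate 2, which held the 36 counts, the quiescent value was −0.47 (edgeR FDR = 0.0967), and in ANS4 alone it was −0.37 (FDR = 0.283) and the BMP value −0.50 (FDR = 0.221). The log2 difference of BMP/FGF from BMP was 0.41 (SE 0.29).

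**Figure D2:**
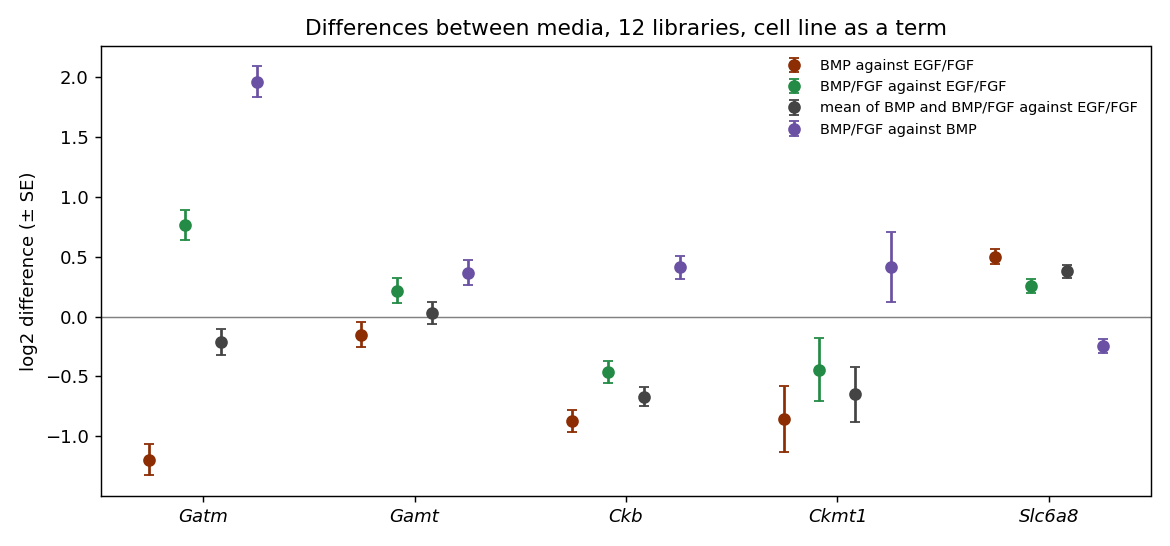
Log2 differences between media (vertical axis) for the 5 genes (horizontal axis), from the fit to 12 libraries with the cell line as a term. Points are estimates and bars their SE. Gatm has the largest positive and the largest negative value, 1.96 for BMP/FGF against BMP and −1.20 for BMP against EGF/FGF, and Slc6a8 has the opposite sign in both of these.

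Over the 5 genes, 1 was higher and 2 were lower in the quiescent mean at FDR under 0.05, and 2 did not pass. The media changed most of the transcriptome: of all 13312 tested genes, 82.0% passed in this comparison, 42.2% higher and 39.7% lower, so that a call is no mark of the creatine genes. The median log2 difference was −0.22 over the 5 genes and 0.02 over all tested genes. Of the 4 genes tested in each medium (all but Gatm), 3 passed in BMP against EGF/FGF, where 79.6% of all genes did, and 2 in BMP/FGF against EGF/FGF, where 78.9% did. Both comparisons use the same EGF/FGF libraries.

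Levels of different genes can be set side by side only per length, here as mean CPM per kilobase of the median coding transcript. In EGF/FGF, Ckb stood at 3192 CPM per kilobase, Slc6a8 at 28.0, Gamt at 22.2, Gatm at 20.9 and Ckmt1 at 0.916. Gatm and Gamt did not differ beyond their spread there, with 19.0 to 22.9 and 20.4 to 24.6 CPM per kilobase over the libraries. In BMP, Gatm (6.68 to 11.6 CPM per kilobase) lay below Gamt (15.3 to 26.0) in every library, and in BMP/FGF it lay above (34.7 to 36.6 against 22.9 to 28.3). Slc6a8 lay at 39.7 CPM per kilobase in BMP and 33.4 in BMP/FGF. Its place next to Gatm in BMP/FGF (35.7) depends on the transcript, since the shortest coding transcript of Slc6a8 gives 44.2 and the longest 27.9. The cytosolic kinase was in every medium far above the other genes and the mitochondrial kinase far below.

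Ratios within a library do not depend on the scaling between libraries. They are ratios of CPM without a length correction, so what is described is their change between media. For each unit of Gatm, Gamt stood at 0.506, 0.486, 0.367 and 0.404 in EGF/FGF (the ANS4 libraries first), at 0.777, 0.922, 0.942 and 1.00 in BMP, and at 0.319, 0.279, 0.272 and 0.316 in BMP/FGF. The ratio was highest in BMP and lowest in BMP/FGF, and the media did not overlap. For each unit of Gatm, Slc6a8 ranged over 1.73 to 2.07 under EGF/FGF, 4.53 to 8.73 under BMP and 1.24 to 1.38 under BMP/FGF, again without overlap. The ratio of importer to synthetic enzyme was highest in the BL6 BMP libraries, at 7.70 and 8.73, against 4.63 and 4.53 in ANS4. Because both of these ratios have Gatm below the line, they carry the difference for which Gatm was chosen. The ratio of Ckmt1 to Ckb, which does not involve Gatm, overlapped in all media, with mean log2 ratios of −11.69 ± 0.395, −11.73 ± 0.606 and −11.67 ± 0.24 (SD, n = 4) in EGF/FGF, BMP and BMP/FGF.

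**Figure D3:**
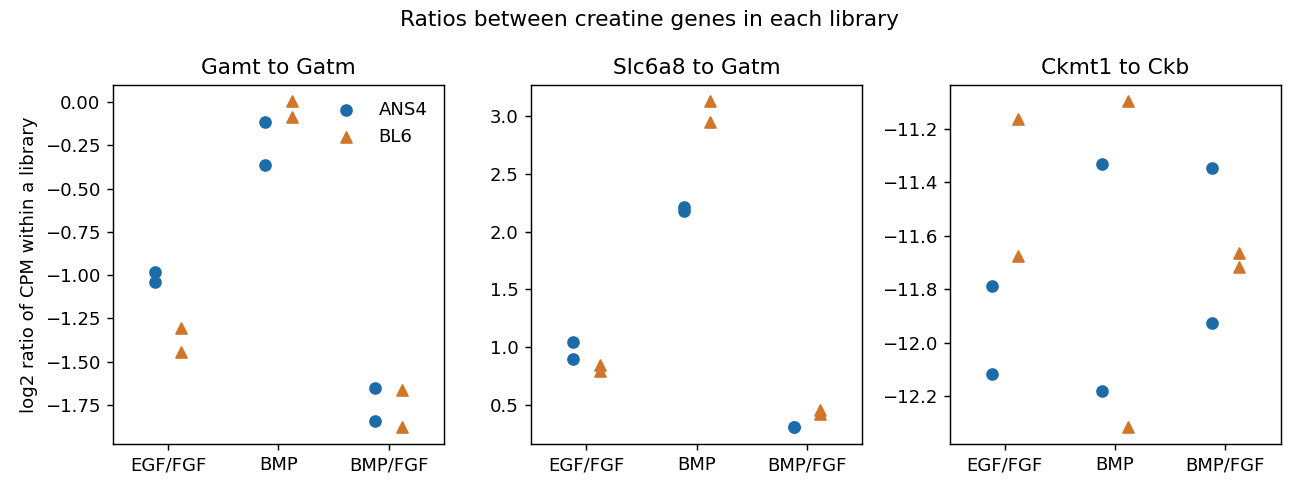
Log2 ratio of CPM between pairs of genes in each library (vertical axes), by medium (horizontal axes). Circles are ANS4 libraries and triangles BL6 libraries. Gamt and Slc6a8 are highest relative to Gatm in BMP and lowest in BMP/FGF, and the ratio of the kinases overlaps in all 3 media.

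The lines answered with unequal size. For Gatm, BMP/FGF was 3.12-fold above BMP in ANS4 (86.7 against 27.8 CPM, means of 2) and 5.08-fold in BL6 (84.0 against 16.5). The difference between the lines, a test that is independent of the size averaged over them, was 0.70 on the log2 scale (SE 0.11, edgeR FDR = 0.00049). It stayed between 0.63 and 0.75 in 19 alternatives. Those without a BMP or BMP/FGF library are tied to the choosing comparison and carry no test. The lines lay without overlap in BMP, with BL6 lower, and in EGF/FGF, with BL6 higher (53.4 against 46.6 CPM). Each line had only 2 libraries in a medium, and no test of the lines within a medium was run. How many of all genes part the lines in this way was not counted. The quiescent mean against EGF/FGF was likewise lower in BL6 than in ANS4 for Gatm, by a log2 value of −0.59 (SE 0.09, edgeR FDR = 0.000904). Its BMP level was 1.68-fold below EGF/FGF in ANS4 and 3.23-fold below in BL6.

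Ckb showed the same direction of line difference between BMP and BMP/FGF: 1.11-fold in ANS4 (3093 to 3437 CPM) and 1.59-fold in BL6 (2086 to 3326), a log2 difference of 0.52 between the lines (SE 0.10, edgeR FDR = 0.00335). For Gamt the lines differed by 0.48 (SE 0.17, FDR = 0.0631), from 1.10-fold in ANS4 to 1.53-fold in BL6, which did not pass. It passed without BMP ANS4 replicate 1 (0.61, edgeR FDR = 0.0384), BMP BL6 replicate 2 (0.58, FDR = 0.0299) or BMP/FGF BL6 replicate 1 (0.62, FDR = 0.0485). Slc6a8 did not pass, at −0.01 (95% interval −0.22 to 0.20, edgeR FDR = 0.963). That interval reaches nearly as far as the whole Slc6a8 difference of BMP/FGF from BMP (−0.25). Ckmt1 did not pass with a wide interval, at 0.29 (−0.85 to 1.43, FDR = 0.793). In all, 2 of the 5 genes had a line difference between BMP and BMP/FGF, where 13.5% of all tested genes did, and 1 of 5 in the quiescent mean, where 4.60% did. The BL6 BMP replicates agreed least with each other of all replicate pairs (chi-square per gene 12.5, against 2.14 to 4.78 in the other pairs). Leaving out any 1 library gave line differences between BMP and BMP/FGF of 0.65 to 0.75 for Gatm and 0.40 to 0.64 for Ckb. Such a fit leaves 1 library in a combination of line and medium. Without a BMP or BMP/FGF library the Gatm value is tied to the choosing comparison.

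Averaged over the media, 0 of the 5 genes differed between the lines at FDR under 0.05 in edgeR, where 1.80% of all tested genes did, although 2 had an unadjusted p under 0.05. The nearest were Ckb, at −0.30 (BL6 minus ANS4, SE 0.08, edgeR FDR = 0.0556), and Gamt, at −0.26 (SE 0.09, FDR = 0.129). DESeq2 called 1 of the 5, Ckb (−0.30, adjusted p = 0.00802), and limma on the deposited log2 values called 0, with 2 at an unadjusted p under 0.05. For Ckb the edgeR call was also reached with library size only (−0.28, FDR = 0.0479) and without replicate 2 of BMP/FGF in ANS4 or in BL6 (−0.33 and −0.34, FDR = 0.0352 and 0.0401).

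**Figure D4:**
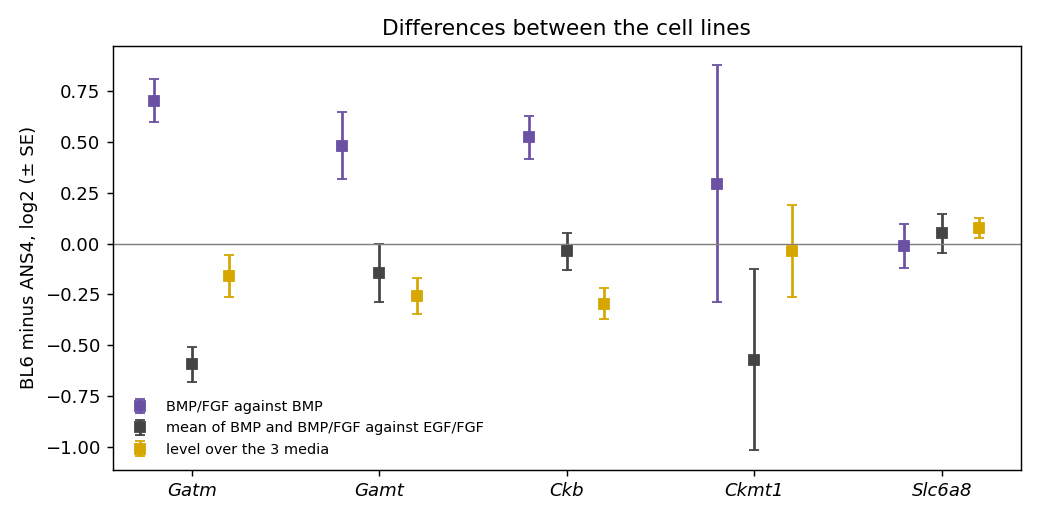
BL6 minus ANS4 on the log2 scale (vertical axis) for the 5 genes (horizontal axis): the line difference of BMP/FGF against BMP, of the quiescent mean against EGF/FGF, and of the level over the 3 media. Squares are estimates and bars their SE. Gatm departs from 0 in opposite directions in the first and second, at 0.70 and −0.59.

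Other genes of creatine metabolism were few in these cells. The muscle creatine kinase Ckm held at most 1 count in any library and the creatine carrier Slc16a12 at most 7, and neither was tested; Ckmt2 was not analysed here. Slc16a9, a carrier of the monocarboxylate family, stood at 2.55 ± 0.460 CPM in EGF/FGF, 9.69 ± 1.85 in BMP and 11.0 ± 0.605 in BMP/FGF (SD, n = 4). It rose by 2.01 in the quiescent mean (log2, SE 0.14, edgeR FDR = 3.47e-10). It overlaps annotated exons of Gm7097 and Gm9877 on the opposite strand. Alpl, the tissue-nonspecific alkaline phosphatase, which can release phosphate from phosphocreatine, held 13.04 and 11.7 CPM in ANS4 and 14.4 and 12.6 in BL6 under EGF/FGF. It held 29.0 and 29.5 CPM in ANS4 but 12.3 and 12.6 in BL6 under BMP, and 35.2, 33.5, 31.2 and 29.6 under BMP/FGF. Thus BMP alone left Alpl in BL6 within the range of EGF/FGF. Alpl rose by 0.96 in the quiescent mean (log2, SE 0.17, edgeR FDR = 3.69e-05) and by 0.69 from BMP to BMP/FGF (SE 0.18, FDR = 0.00495). Its line differences had the signs of those of Gatm, 1.06 for BMP/FGF against BMP (SE 0.13, edgeR FDR = 0.000153) and −0.83 for the quiescent mean (SE 0.12, FDR = 0.00101).

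The pathways that feed and surround creatine synthesis were read from 6 lists, including the 5 genes just named. Of 86 listed genes that are not among the 5, 61 were tested. In the quiescent mean 20 were higher, 30 lower and 11 not called, which is 82.0% called, the same as over all genes. Their median log2 difference was −0.16, against 0.02 over all genes. From BMP to BMP/FGF 18 were higher and 8 lower (42.6% called; over all genes 41.4% were called, 20.1% higher and 21.3% lower), with a median of 0.10 against −0.004 over all genes. The balance depended on the line, with 12 higher and 15 lower in ANS4 alone and 28 higher and 5 lower in BL6 alone. None of the 61 passed the log2 threshold of 1.5 in that comparison, with a highest value of 1.11.

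Arginine, the donor of the amidino group that GATM transfers, is imported by carriers of the Slc7 family. Of 13 tested genes for arginine supply and use, 5 were higher and 5 lower in the quiescent mean (median 0.01). The constitutive carrier Slc7a1 held 66.4 ± 2.69 CPM in EGF/FGF, 17.5 ± 4.50 in BMP and 12.8 ± 1.00 in BMP/FGF (SD, n = 4), and in the quiescent mean it fell by 2.16 on the log2 scale (SE 0.09, edgeR FDR = 9.16e-14). The related carrier Slc7a2 went the other way, from 22.6 ± 1.22 CPM to 146.1 ± 30.0 and 89.2 ± 3.35, a log2 rise of 2.34 (SE 0.09, FDR = 9.03e-14). Oat, which uses the ornithine that GATM releases, rose by 0.95 (SE 0.08, edgeR FDR = 2.89e-09), and Odc1, which turns ornithine into putrescine, fell by 0.47 (SE 0.08, FDR = 2.4e-05). Between the quiescent media 2 were higher in BMP/FGF, the nitric oxide synthase Nos3 (0.74, SE 0.25, FDR = 0.0263) and Ddah1, which breaks down methylated arginines (0.51, SE 0.07, FDR = 2.11e-05). The 2 that were lower were both arginine carriers, Slc7a2 (−0.70, SE 0.09, edgeR FDR = 1.36e-05) and Slc7a1 (−0.44, SE 0.12, FDR = 0.00566). Both carriers were thus lower in BMP/FGF than in BMP, while Slc7a2 stayed above EGF/FGF in both. The size depended on the line. From BMP to BMP/FGF, Slc7a1 means went from 13.6 to 12.75 CPM in ANS4 and from 21.4 to 12.85 in BL6 (line difference −0.64, edgeR FDR = 0.00741). Slc7a2 means went from 171.8 to 86.6 CPM in ANS4 and from 120.5 to 91.8 in BL6 (line difference 0.60, FDR = 0.000706).

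Glycine is the other substrate of GATM. Of 12 tested genes for glycine and serine, 5 were higher and 6 lower in the quiescent mean (median −0.13). Shmt1, the cytosolic enzyme that turns serine into glycine, held 48.9 ± 3.14 CPM in EGF/FGF, 7.85 ± 1.67 in BMP and 6.45 ± 0.230 in BMP/FGF (SD, n = 4) and fell by 2.78 on the log2 scale (SE 0.09, edgeR FDR = 4.46e-15). Its mitochondrial counterpart Shmt2 fell by 1.22 (SE 0.06, FDR = 3.71e-12). The glycine cleavage genes Gldc and Amt rose by 1.38 (SE 0.06, edgeR FDR = 2.64e-13) and 1.13 (SE 0.09, FDR = 2.81e-09). Between the quiescent media 4 were higher in BMP/FGF and 1 lower, 5 calls that became 10 in BL6 alone. The glycine importer Slc6a9 rose by 0.71 (SE 0.09, edgeR FDR = 1.2e-05), from 32.03 ± 8.69 to 51.5 ± 4.66 CPM (SD, n = 4), and the serine and alanine carrier Slc1a4 by 0.58 (SE 0.08, FDR = 2.95e-05), while Gldc fell by 0.30 (SE 0.06, FDR = 0.00106).

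The methyl group for GAMT comes from S-adenosylmethionine and leaves S-adenosylhomocysteine behind. Of 12 tested genes of the methyl donor cycle, 3 were higher and 6 lower in the quiescent mean (median −0.42). Ahcy, which clears S-adenosylhomocysteine, held 39.8 ± 4.48 CPM in EGF/FGF, 9.92 ± 1.06 in BMP and 9.65 ± 0.908 in BMP/FGF (SD, n = 4) and fell by 2.02 on the log2 scale (SE 0.08, edgeR FDR = 9.93e-14). Cth, of the transsulfuration branch, fell by 1.39 (SE 0.13, FDR = 1.52e-08). Ahcyl2, a relative of Ahcy, rose by 0.53 (SE 0.07, edgeR FDR = 2.91e-06). From BMP to BMP/FGF 4 were higher and 1 lower, with Ahcyl1 (0.41, SE 0.07, edgeR FDR = 7.72e-05) and the adenosine kinase Adk (0.34, SE 0.07, FDR = 0.000685) the largest rises and Mat2b the fall (−0.17, SE 0.06, FDR = 0.0354). These 5 calls became 2 in ANS4 alone and 3 without BMP/FGF ANS4 replicate 2, BMP BL6 replicate 1 or BMP/FGF BL6 replicate 1.

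Adenylate and nucleoside diphosphate kinases are the other carriers of high-energy phosphate. Of 17 tested genes of this shuttle, 3 were higher and 11 lower in the quiescent mean (median −0.37), the direction in which both creatine kinases fell. Ak6 fell by 1.61 on the log2 scale (SE 0.10, edgeR FDR = 5.48e-11), and Nme2 fell by 1.57 (SE 0.06, FDR = 3.17e-14), with 189.2 ± 12.7 CPM in EGF/FGF, 55.1 ± 7.05 in BMP and 74.2 ± 2.51 in BMP/FGF (SD, n = 4). The AMP deaminase Ampd3 rose by 2.33 (SE 0.06, edgeR FDR = 4.81e-16) and the adenylate kinase Ak5 by 1.14 (SE 0.07, FDR = 2.06e-11). From BMP to BMP/FGF 6 were higher and 2 lower, 8 calls that became 5 with scaling by library size only, without BMP/FGF ANS4 replicate 1 or without BMP/FGF BL6 replicate 2. Nme2 (0.44, SE 0.07, edgeR FDR = 0.000117) and Ampd3 (0.42, SE 0.06, FDR = 2.85e-05) rose most, and Ampd2 (−0.33, SE 0.06, FDR = 0.000317) and Nme1 (−0.25, SE 0.06, FDR = 0.00355) fell.

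Among the other carriers of the Slc6 family, 5 of the 17 listed were tested, and 2 were higher and 2 lower in the quiescent mean (median −0.12). Slc6a19, a carrier of neutral amino acids, rose by 3.43 on the log2 scale (SE 0.28, edgeR FDR = 2.44e-09). Its libraries lay at 0.207 to 0.208 CPM under EGF/FGF, at 2.27 to 3.65 under BMP and at 1.40 to 2.57 under BMP/FGF. Each EGF/FGF library held only 4 counts of Slc6a19, so the size of this rise is uncertain. The taurine carrier Slc6a6 fell by 1.19 (SE 0.05, edgeR FDR = 2.73e-13) and Slc6a17 by 0.49 (SE 0.10, FDR = 0.000243). From BMP to BMP/FGF the GABA carrier Slc6a11 rose by 1.11 (SE 0.08, edgeR FDR = 1.22e-08), from 85.9 ± 21.5 to 182.6 ± 16.9 CPM (SD, n = 4), and Slc6a19 (−0.72, SE 0.20, FDR = 0.00811) and Slc6a6 (−0.51, SE 0.06, FDR = 5.74e-06) fell.

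**Figure D5:**
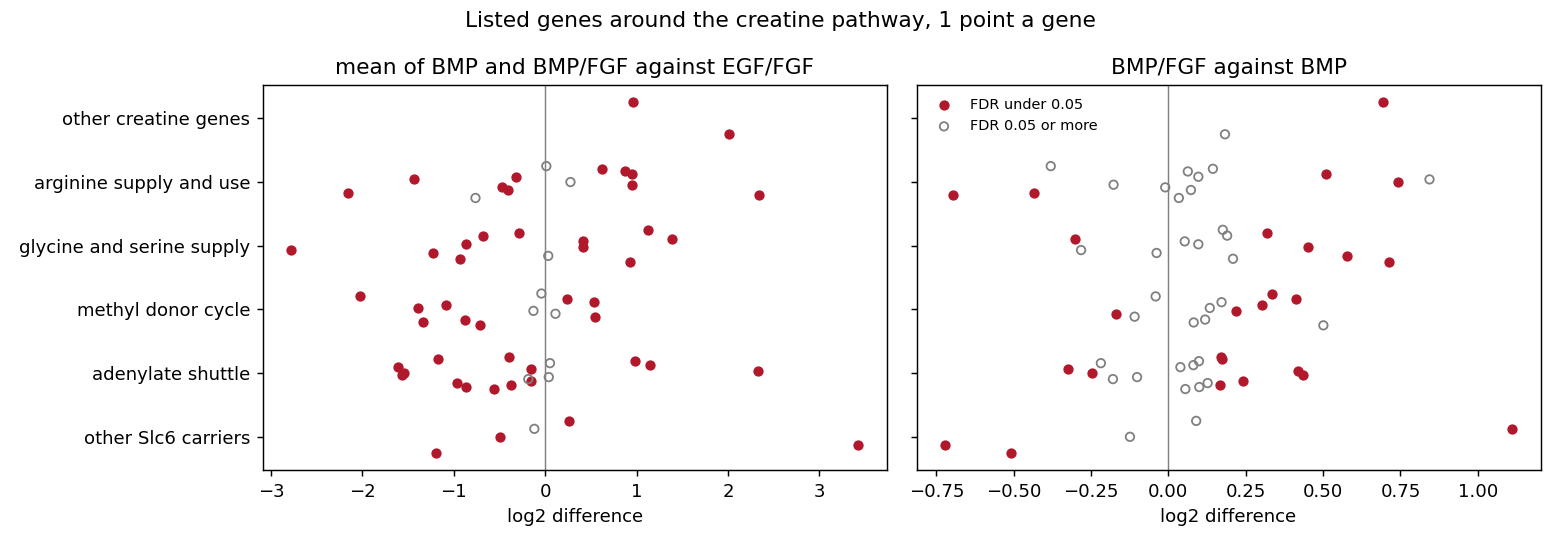
Log2 differences (horizontal axes) of the tested genes in 6 lists around the creatine pathway (vertical axis), for the quiescent mean against EGF/FGF (left) and BMP/FGF against BMP (right, on a narrower scale). Each point is a gene, filled at FDR under 0.05. Both directions occur in 5 of the lists at the left, and the right panel stays between −0.72 and 1.11.

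The genes whose log2 CPM was most like that of each gene over the 12 libraries were ranked by Pearson correlation, with 10 CPM as the lowest mean level admitted. The libraries share media and lines, so these values are a description. For Gatm they were Ncan (r = 0.97), which encodes the matrix proteoglycan neurocan, Pde4b (0.97), a cyclic AMP phosphodiesterase, and Msrb3 (0.97), a methionine sulfoxide reductase. These had smaller log2 differences from BMP to BMP/FGF than Gatm, at 1.04, 0.80 and 0.87. For Gamt the closest were Htra1 (r = 0.89), Gpc6 (0.88) and Rbm43 (0.88), and for Ckb they were Gper1, Nsdhl and Uqcr10 (0.98 each). For Slc6a8 they were Crtc3, Mul1 and Lrfn4 (0.98 each), and for Ckmt1 Arl6 (0.93), Mkln1 (0.92) and Zdhhc6 (0.91). Among the 5 genes, Gatm and Gamt correlated at 0.75, Gatm and Ckb at 0.58, and Ckb and Ckmt1 at 0.69 over the 12 libraries. Slc6a8 correlated negatively with each of the other 4, from −0.89 with Ckb to −0.32 with Gamt.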

How the data were processed

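RNA-seq covered 12 libraries in 3 media and 2 NSC lines. The authors trimmed reads with Trim Galore 0.5.0, quantified them with kallisto 0.44.0 on the mm10 transcriptome, summarised them with tximport and used DESeq2 1.27.32. The deposited count table gives, as whole numbers, the estimated counts of each gene. A second table deposited by the authors holds log2 values (regularized logarithm) and entered as an alternative. All columns matched a labelled library.

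Counts were filtered with filterByExpr (13312 genes tested, 4053 not), scaled by TMM and fitted with glmQLFit in edgeR 4.0.16 (R 4.3.3), with medium and line as terms, or with the 6 line and medium means for line differences. Tests were two-sided with Benjamini-Hochberg adjustment over all tested genes. Intervals are normal, from the SE, and unadjusted. CPM levels and ratios carry no added constant, and the alternative ratios used a prior count of 2. Alternatives were DESeq2 1.42.0 size factors and Wald test, library size only, no filter, limma 3.58.1 on the log2 values, no line term, the 8 libraries compared, each line alone, each library left out, and the replicate block.

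Of each list, up to 2 genes with the largest rise and fall among those called, with a mean of at least 1 CPM, were named, with all other creatine genes; single values of some of these genes are not reported here, while the list counts include them. The members and lists were chosen with earlier results of these data known. On simulated counts the tests recovered 199 of 200 changed genes for the quiescent mean (19 false calls, 13176 genes). For the line difference of BMP/FGF against BMP they recovered 181 of 200 (15 false calls, 13177 genes). Every planted log2 change was larger in size than those of Gatm, Gamt, Ckb, Ckmt1 and Slc6a8 in the same comparison. Theirs were at most 0.67 in the quiescent mean and 0.70 in the line difference. In the data, 82.0% of genes were called in the quiescent mean, far more than the share planted. The recovery is therefore no measure of power for changes as small as theirs. Figures used matplotlib.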

Additional observations from a re-analysis of the deposited data

Results flagged for a closer look

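The change of Gatm from BMP to BMP/FGF was the larger in BL6, exceeding that in ANS4 by 0.70 on the log2 scale (line by medium interaction, edgeR FDR = 0.00049), and its quiescent mean against EGF/FGF was lower in BL6, by −0.59 (FDR = 0.000904). In BMP the libraries stood at 27.8 and 27.7 CPM in ANS4 and 16.0 and 17.1 in BL6. In EGF/FGF they stood at 47.8 and 45.3 in ANS4 and 54.7 and 52.1 in BL6. BL6 was thus lower in BMP and higher in EGF/FGF, from 2 libraries of each line and without a test within a medium.

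Ckb also had a larger change from BMP to BMP/FGF in BL6, by 0.52 (edgeR FDR = 0.00335). Alpl had the same pair of line differences as Gatm, 1.06 between the quiescent media (edgeR FDR = 0.000153) and −0.83 in the quiescent mean (FDR = 0.00101).

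Ckmt1 in BL6 EGF/FGF replicate 2 stood at 1.86 CPM, apart from the other 3 EGF/FGF libraries at 1.24 to 1.35. Its gap was 0.83 of the range of the 4 libraries, just past the 95% critical value of Dixon's test. It was the 1 such case among 21 sets of 4 libraries examined (7 genes in 3 media), and chance gives about 1 in 20.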

How the results depend on the processing

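Of 556 recomputed values for 28 tested results of the 5 genes, 532 kept their side of the threshold, 3 lost and 18 gained a call, 0 reversed a call, and 3 (Ckmt1 between lines in DESeq2) had no adjusted p. The Ckb and Slc6a8 differences from EGF/FGF, both line differences of Gatm, and the Ckb line difference of BMP/FGF against BMP passed under every alternative run. The calls lost were those of Ckmt1, in ANS4 alone (−0.37 in the quiescent mean, −0.50 in BMP) and in the quiescent mean without EGF/FGF BL6 replicate 2. Gained were Gatm in the quiescent mean (−0.54) and Gamt in BMP (−0.37) in BL6 alone, Gamt in BMP/FGF in the 8 libraries compared (0.20), and Ckb between lines with library size only (−0.28) or DESeq2 (−0.30). From BMP to BMP/FGF, the values in ANS4 alone and BL6 alone were 1.64 and 2.35 for Gatm, 0.14 and 0.62 for Gamt, and 0.15 and 0.68 for Ckb. Against EGF/FGF, Gatm in BMP was −0.75 and −1.71. Listed genes called lower from BMP to BMP/FGF numbered 15 in ANS4 alone and 5 in BL6 alone, and those higher 12 and 28. The cause of these shifts was not tested. Without a BMP or BMP/FGF library the quiescent media are unequal in size, so Gatm values there are not independent of the choosing comparison. This applies to the Gatm calls gained in the quiescent mean without either ANS4 BMP library, and to its line differences without such a library.

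Leaving out 1 library gave −0.30 to −0.14 for Gatm and −0.76 to −0.47 for Ckmt1 in the quiescent mean, −0.26 to −0.066 and 0.12 to 0.29 for Gamt in BMP and BMP/FGF, 0.35 to 0.62 for the Gamt line difference, and −0.34 to −0.23 for Ckb between lines. Over all genes, calls numbered 897 to 2833 for the line difference of BMP/FGF against BMP (highest without BMP BL6 replicate 1), 203 to 1594 for that of the quiescent mean, and 52 to 301 between lines. The first moved by over 1.5 times without BMP ANS4 replicate 2, BMP BL6 replicate 1 or any BMP/FGF library, the second without any library but the ANS4 BMP pair, and the third without either ANS4 BMP library, BMP BL6 replicate 1 or any EGF/FGF library. Between lines, 539 genes were called by DESeq2, 109 with no filter and 145 by limma.

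The labels do not say whether replicate numbers pair the libraries. Same-numbered libraries of a line correlated at −0.179 to 0.306 in their deviations, highest between EGF/FGF and BMP in ANS4, which does not settle it. With the replicate block, Gatm in the quiescent mean was −0.22 (FDR = 0.104), its line difference 0.70 (FDR = 0.0013), and no call on the 5 genes changed. Depth limits Ckmt1, at 8 to 36 counts.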
